A study of Mus musculus with 8 samples.

Results

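Rab proteins are small GTPases that mark the membranes a cell moves between its compartments. The mouse Rab genes were taken as all targets whose RefSeq accession maps to a symbol made of Rab, a number and at most a letter and a further digit, a rule that uses no measured value. Of 59 such symbols in the RefSeq gene table, 54 had a target among the 23930 targets of the files. *Rab4b*, *Rab11b*, *Rab33b*, *Rab39b* and *Rab43* had no matched target and were not analysed here. The counts of 40 of the 54 were high enough to be tested.

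The cells were liver sinusoidal endothelial cells, the fenestrated lining of the liver capillaries, taken in a flow cytometry sort for high STAB2, high CD146 and dim CD45. They came from young, wild type, female Balb/c mice 5 h after an injection into a vein. In 4 libraries the mice had received 150 µg of iron citrate, and in the other 4 only 0.05 M citrate buffer, which serves as the control. All 8 shared strain, sex, genotype, sort and time, and each library is labelled with 1 mouse. The design text speaks of more samples per group, and those were not analysed here.

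A Rab protein works as a switch. Bound to GTP it sits on a membrane and recruits effectors such as tethers, motors and sorting complexes, exchange factors load it with GTP, and GTPase-activating proteins of the TBC family switch it off. Sinusoidal endothelial cells are known for very high rates of endocytosis through scavenger and mannose receptors. In that route Rab5 proteins act on early endosomes, Rab4, Rab11 and Rab35 return receptors to the surface, and Rab7 and Rab9 serve late endosomes. Rab1, Rab2 and Rab6 act between the endoplasmic reticulum and the Golgi, and Rab3, Rab8, Rab10 and Rab27 in secretion.

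Counts on targets ran from 7969520 to 11314659 per library, and the Rab genes took between 0.350% and 0.385% of them. Citrate buffer replicate 1 stood apart, with a median correlation to its own group of 0.839 against 0.962 to 0.981 for the other 7 libraries. Gene families that liver does not express, such as olfactory receptors (1288 targets), took 2.42% of its counts, 0.984% in citrate buffer replicate 2 and 0.295% to 0.612% in the other 6 libraries. The 10 markers of sinusoidal endothelium summed to 13708 CPM (counts scaled to a common library size with TMM factors) in that library, 21286 to 27564 CPM in the other buffer libraries and 22520 to 24180 CPM after iron. Each of the 10 read at least 45.0 CPM in each library, the lowest being *Fcgr2b*, so these markers were present in every library. *Mcam*, which encodes CD146, read 204 to 285 CPM after buffer and 165 to 192 CPM after iron, without overlap. The ranges of the other markers in this list overlapped, and none of the 10 passed the test described below. Citrate buffer replicate 1 had the highest summed markers of T and NK cells, 1300.3 CPM against 555 to 941 CPM in the other 7. It also had the highest sum of neutrophil markers, 384 CPM against 108 to 229 CPM. Of the latter, *S100a8*, *S100a9*, *Camp* and *Elane* were highest there, and *Ngp*, *Ltf*, *Retnlg* and *Mpo* were not. The part of these differences in the results that follow was not tested, so values are also given without that library where they move.

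At rest, after citrate buffer, the Rab genes with the highest level belonged to the secretory and recycling groups. *Rab1a*, which directs transport from the endoplasmic reticulum to the Golgi, stood at 344 ± 36.5 CPM (SD, n = 4, as for all values with an SD here). *Rab10*, which carries vesicles to the surface, stood at 342 ± 31.6 CPM, *Rab14*, of recycling endosomes, at 329.8 ± 70.3 CPM, and *Rab2a*, of the Golgi, at 295 ± 18.6 CPM. *Rab27a*, known for the docking of secretory granules, was at 257 ± 70.3 CPM. These 5 lay at or above the 97.7 percentile of all targets. Each gene was read through 1 amplicon whose efficiency is not known, so this order is one of CPM per amplicon and not of transcripts.

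**Figure D1:**
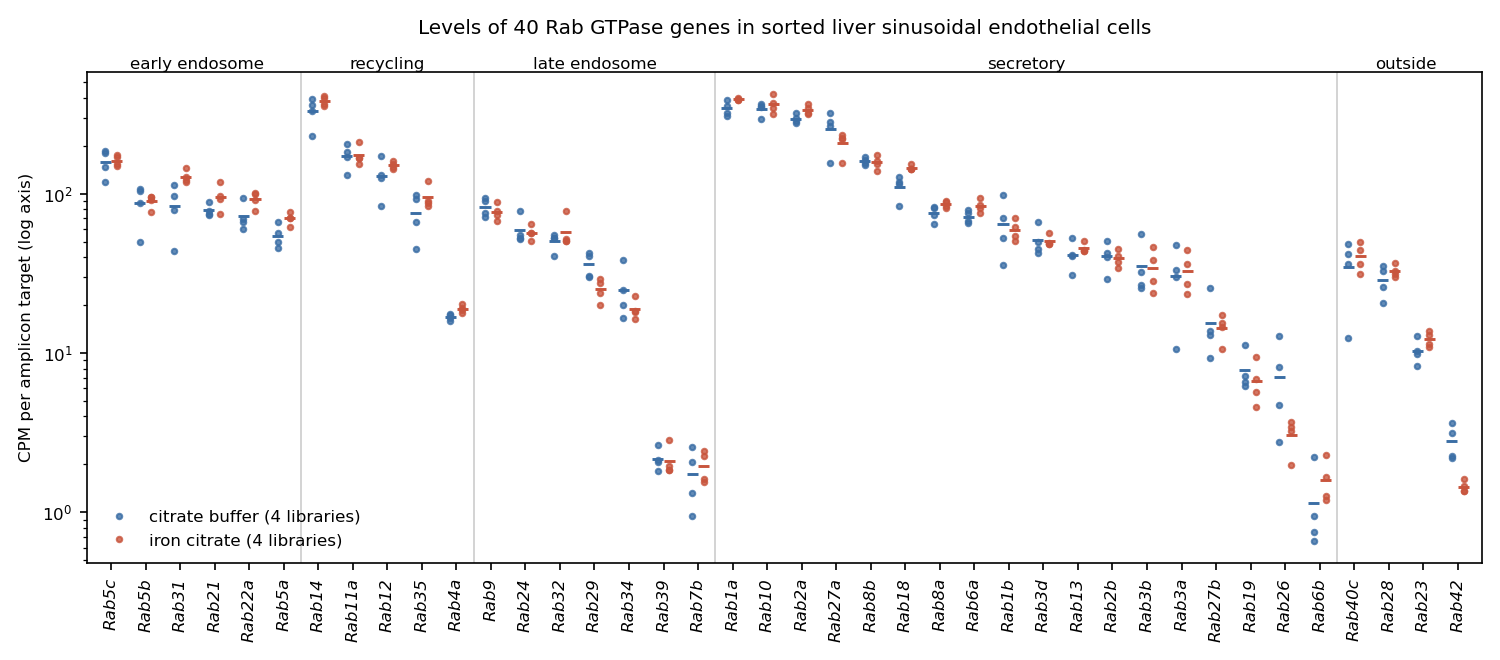
CPM of the 40 tested Rab genes on a log axis, ordered by stage of traffic and by mean in citrate buffer, with 1 point per library and a bar at the mean of each group of 4. *Rab14* leads the recycling genes, *Rab5c* the early endosome genes and *Rab1a* and *Rab10* the secretory genes, and the points of the 2 treatments overlap for most genes.

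Among the genes of early endosomes, *Rab5c* was highest with 158 ± 31.6 CPM in citrate buffer. *Rab5b* stood at 87.0 ± 26.2 CPM, *Rab31*, a relative of Rab5 that also serves the Golgi, at 83.4 ± 30.2 CPM, and *Rab5a* at 54.6 ± 9.11 CPM. Rab5 proteins fuse incoming vesicles with the early endosome. *Rab20* had 1 count over all 8 libraries.

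In the recycling group *Rab14* was followed by *Rab11a*, of the slow route through the recycling endosome, at 172 ± 30.9 CPM and by *Rab12* at 129 ± 36.5 CPM. *Rab4a*, of the fast route back to the surface, was the lowest tested gene of the group, with 16.8 ± 0.77 CPM. *Rab15*, *Rab17* and *Rab25*, of which the last is known from epithelia, had between 4 and 14 counts in total and were not tested.

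Late endosome genes were led by *Rab9*, which returns mannose 6-phosphate receptors to the Golgi, with 82.9 ± 11.05 CPM. *Rab24*, linked to autophagy, had 59.6 ± 12.5 CPM and *Rab32*, of lysosome-related organelles, 50.4 ± 6.57 CPM. *Rab7b* stood at 1.73 ± 0.73 CPM. The target of *Rab7*, the principal Rab of late endosomes, had 1 count over all 8 libraries, where 3 counts in a library would be 0.2501 to 0.397 CPM. This describes 1 amplicon only. It is no measure of the gene's transcript, and the reason for the low count was not tested.

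The secretory genes included *Rab8b* at 160 ± 7.22 CPM and *Rab18*, of the endoplasmic reticulum and lipid droplets, at 111 ± 19.0 CPM. *Rab26* and *Rab6b*, the form of Rab6 known from brain, were low with 7.10 ± 4.37 and 1.15 ± 0.73 CPM. Outside the groups, *Rab40c* had 34.8 ± 15.8 CPM, *Rab28* 28.6 ± 6.69 CPM, *Rab23*, known as a regulator of hedgehog signalling, 10.3 ± 1.89 CPM and *Rab42* 2.81 ± 0.71 CPM. *Rab3c* and *Rab9b* had 0 counts, *Rab37*, *Rab40b* and *Rab38* 3, 5 and 8, *Rab33a* and *Rab44* 23 each, and *Rab30* and *Rab36* 58 each. None of the 39 pairs of neighbours in the order of the 40 tested genes had buffer ranges that did not overlap. Ranges can overlap where a gene is higher in each single library, as *Rab27a* was than *Rab11a* in all 4 buffer libraries. The 10 highest genes were the same 10 after buffer and after iron.

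The series asks how iron signals in these cells and names NRF2, a transcription factor of the oxidative stress response. Its core motif, TGACNNNGC on either strand, was therefore looked up in the RefSeq promoter windows (GRCm38.p6, 250 bases before to 50 after a start). It was in 4 of the 39 windows of the tested Rab genes that matched (10.3%, 34 genes) and in 12.4% of all 32851 windows. The 4 genes were *Rab22a*, *Rab24*, *Rab8a* and *Rab8b*. The paralogues *Rab8a* and *Rab8b* are shown because both carry it upstream of the start, with the match in capitals. In *Rab8a* it lies on the opposite strand with its first base 160 bases before the start, at chr8:72161020-72161068 on the plus strand, and in *Rab8b* 114 bases before the start, at chr9:66919791-66919839 on the minus strand. A match in these letters is a description and no site of binding.
Rab8a: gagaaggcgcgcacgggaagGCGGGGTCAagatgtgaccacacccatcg
Rab8b: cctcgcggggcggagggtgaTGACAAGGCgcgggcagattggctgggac
*Rab8b* stood at 157 ± 15.5 CPM after iron against 160 ± 7.22 CPM after buffer, with a log2 fold change of -0.03. *Rab8a*, which the naming rule did not choose, had a mean of 75.6 ± 8.34 CPM in buffer and of 86.0 ± 3.94 CPM with iron, and a log2 fold change of 0.19. Neither passed the test (adjusted p 0.918 and 0.407, edgeR).

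After iron citrate no Rab gene passed the test against citrate buffer. The count was 0 of 40 at an adjusted p under 0.05 (edgeR's quasi-likelihood test with Benjamini-Hochberg adjustment over all 14601 tested targets), where 0.555% of all tested targets passed, and the lowest adjusted p of a Rab gene was 0.333. At an unadjusted p under 0.05, 3 Rab genes were higher after iron (7.5%, against 6.57% of all targets) and 3 were lower (7.5%, against 8.0%). Both shares are near the background. The libraries of the groups did not overlap for 3 Rab genes with higher values after iron (7.5%, against 6.36% of all targets) and for 2 with lower values (5.0%, against 2.29%). The log2 fold change was above 0 for 25 of 40 Rab genes (62.5%) and for 49.0% of all targets, with medians of 0.13 and -0.01. In bulk RNA a lower level in each cell and fewer cells that carry the transcript cannot be told apart.

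**Figure D2:**
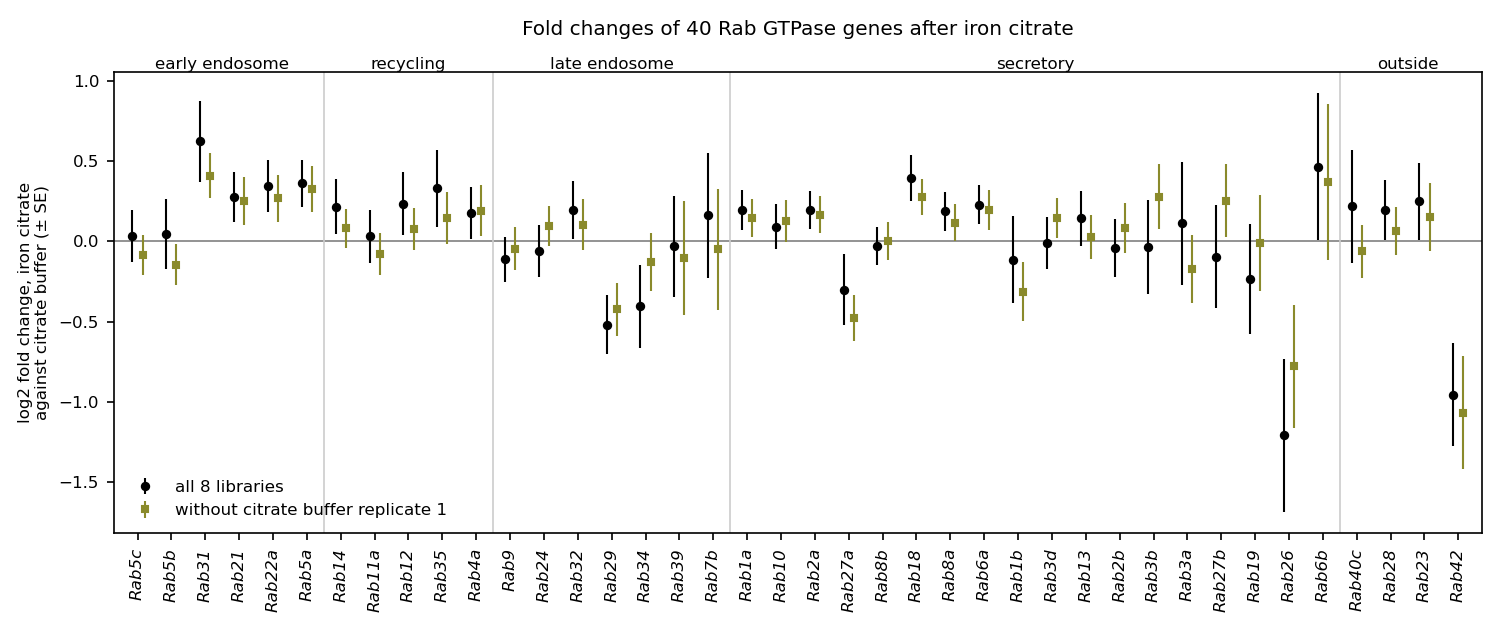
Log2 fold changes of the 40 tested Rab genes after iron citrate against citrate buffer, with standard errors, from all 8 libraries (circles) and without citrate buffer replicate 1 (squares). All 6 early and all 5 recycling genes lie above 0 with all 8 libraries, and *Rab26* and *Rab42* lie lowest.

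All 6 tested genes of early endosomes had a log2 fold change above 0, with a median of 0.31 that was 0.26 without citrate buffer replicate 1, where 4 of the 6 stayed above 0. With the share of counts on the families silent in liver as a covariate, 4 lay above 0 and the median was 0.24. For *Rab5a*, the citrate buffer libraries read 50.1, 45.4, 56.5 and 66.4 CPM and the iron libraries 70.3, 77.3, 70.6 and 62.2 CPM. The iron library with the lowest value overlapped the highest buffer library. Its log2 fold change was 0.36 ± 0.15 (SE), with an unadjusted p of 0.0333 and an adjusted p of 0.333 (edgeR).

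*Rab31* read 43.6, 78.6, 97.5 and 113.9 CPM in the buffer libraries and 127.9, 118.2, 144.8 and 121.7 CPM after iron. Every iron library lay above every buffer library, and citrate buffer replicate 1 was the lowest of the 8. The log2 fold change was 0.62 ± 0.25 (SE) with an adjusted p of 0.333, and it was 0.41 with an adjusted p of 0.196 without that library (edgeR). It was 0.28 with the silent families as a covariate (adjusted p 0.256, edgeR). Without citrate buffer replicates 1 and 2 it was also 0.28 (adjusted p 0.415, edgeR). *Rab5b* and *Rab5c*, the other forms of Rab5, had log2 fold changes of 0.05 and 0.03, with means of 89.8 ± 8.77 and 162 ± 12.6 CPM after iron. Their direction turned under other scalings and without citrate buffer replicate 1, so none is given.

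The 5 recycling genes also had log2 fold changes above 0, with a median of 0.22, but the median was 0.08 without citrate buffer replicate 1 and 4 of 5 stayed above 0. With the silent families as a covariate, 3 of the 5 lay above 0 and the median was 0.02. *Rab4a* had the narrowest spread of the group. It read 17.4, 16.6, 15.8 and 17.5 CPM after buffer and 20.2, 19.2, 17.9 and 18.5 CPM after iron. The ranges did not overlap, but the gap was small, with a log2 fold change of 0.17 ± 0.16 (SE) and an adjusted p of 0.567 (edgeR). *Rab14* stood at 383 ± 24.1 CPM after iron (log2 fold change 0.22 ± 0.17) and *Rab12* at 151 ± 7.58 CPM (0.23). Both log2 fold changes became 0.08 without citrate buffer replicate 1, and that of *Rab12* was 0.41 without citrate buffer replicate 4. *Rab11a*, at 175.5 ± 24.4 CPM after iron, had a log2 fold change of 0.03, whose sign turned under other scalings.

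Of the 7 tested late endosome genes, 2 had log2 fold changes above 0 and 5 below, with a median of -0.06. Without citrate buffer replicate 1 there were also 2 above 0, with a median of -0.05. With the silent families as a covariate the direction of the group turned, with 4 of the 7 above 0 and a median of 0.012. *Rab29*, a Golgi and lysosome Rab that works with the kinase LRRK2, read 42.7, 30.2, 30.7 and 40.5 CPM after buffer and 20.01, 27.5, 29.4 and 23.7 CPM after iron. All iron libraries lay below all buffer libraries. The log2 fold change was -0.52 ± 0.18 (SE), with an unadjusted p of 0.0179 and an adjusted p of 0.333, and -0.42 without citrate buffer replicate 1, the highest library (edgeR). *Rab32* had a log2 fold change of 0.19, which became 0.02 without iron citrate replicate 2 and 0.10 without citrate buffer replicate 1. *Rab9* and *Rab24* had log2 fold changes of -0.11 and -0.06, and both turned sign in some fits. *Rab7b* had a log2 fold change of 0.16, which also turned.

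**Figure D3:**
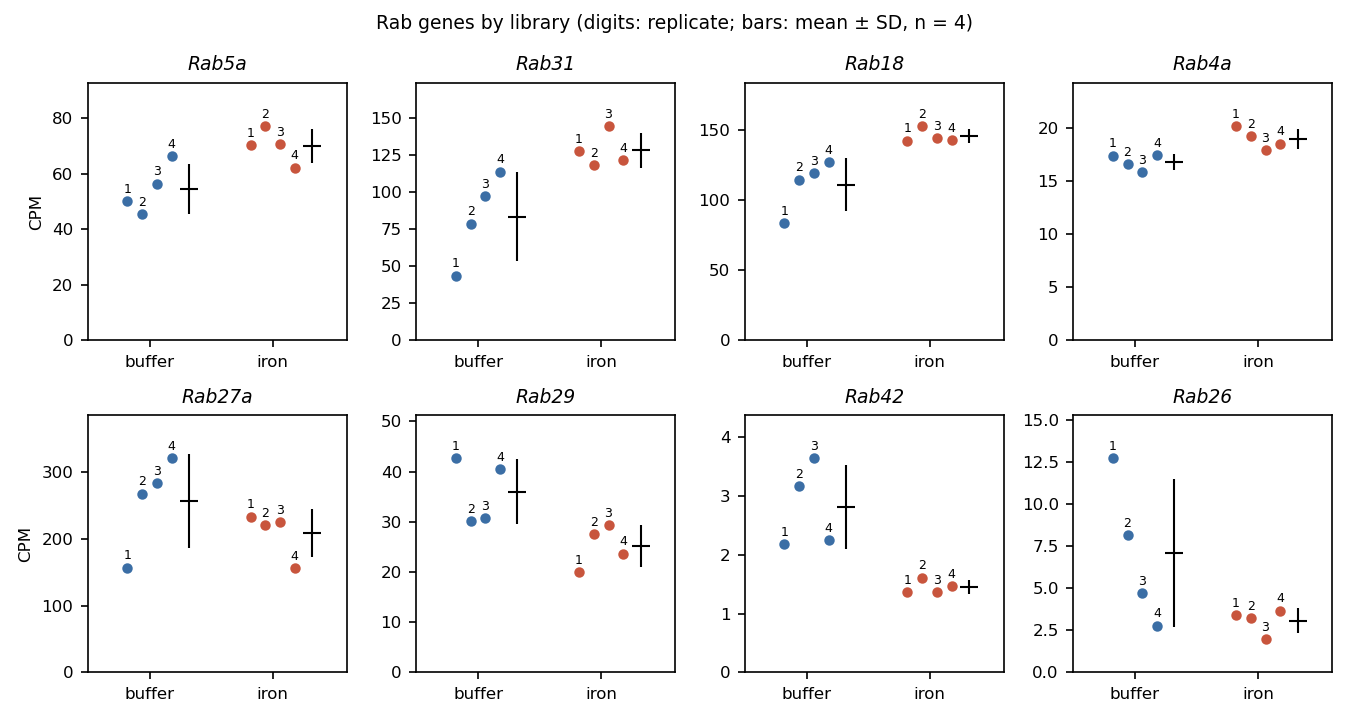
CPM of 8 Rab genes in each library, with digits for the replicate and bars for mean ± SD (n = 4), on axes that start at 0. *Rab31*, *Rab18* and *Rab4a* are higher in every iron library than in every buffer library, *Rab29* and *Rab42* are lower, and *Rab26* is led by citrate buffer replicates 1 and 2.

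The 18 tested secretory genes were split, with 9 log2 fold changes above 0 and 9 below and a median of 0.04. Without citrate buffer replicate 1 there were 12 above 0 with a median of 0.12, and with the silent families as a covariate 11 with a median of 0.11. *Rab18* read 83.5, 114.6, 118.9 and 126.9 CPM after buffer and 142.4, 152.9, 143.9 and 142.8 CPM after iron. Every iron library was above every buffer library, and the log2 fold change was 0.39 ± 0.14 (SE) with an adjusted p of 0.333 (edgeR). Without citrate buffer replicate 1, the lowest library, it was 0.28. *Rab1a* stood at 394 ± 5.41 CPM after iron (log2 fold change 0.19 ± 0.12), *Rab2a* at 338 ± 23.3 CPM (0.20) and *Rab10* at 364 ± 43.6 CPM (0.09). *Rab6b*, with 5 to 25 counts per library, had a log2 fold change of 0.46 ± 0.46, which ran from 0.24 without iron citrate replicate 3 to 1.01 without citrate buffer replicate 3.

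*Rab27a* read 156.8, 267.0, 283.0 and 320.3 CPM in citrate buffer and 232.8, 220.4, 224.3 and 156.2 CPM after iron. The first buffer replicate was about as low as iron citrate replicate 4, and the other 3 buffer libraries were above all iron libraries. With all 8 libraries the log2 fold change was -0.30 ± 0.22 (SE) and the adjusted p 0.462, and the log2 fold change was -0.18 without citrate buffer replicate 4 and also -0.18 without iron citrate replicate 4. It was -0.48 ± 0.14 with an adjusted p of 0.136 without citrate buffer replicate 1, where 0 Rab genes and 1.75% of all targets passed. With the share of the silent families as a covariate it was -0.59 ± 0.14 with an adjusted p of 0.0371, the only Rab gene to pass there, where 2.25% of all targets passed (all edgeR). Without that library the groups did not overlap for 3 Rab genes higher after iron (7.5%, against 8.72% of all targets) and 3 lower (7.5%, against 4.19%), of which *Rab27a* was 1.

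*Rab42* and *Rab26* had the largest log2 fold changes below 0, both at low levels. *Rab42* read 2.19, 3.17, 3.65 and 2.25 CPM after buffer and 1.37, 1.61, 1.36 and 1.47 CPM after iron, which are 13 to 41 counts. All iron libraries lay below all buffer libraries, with a log2 fold change of -0.95 ± 0.32 (SE) and an adjusted p of 0.333, and -1.07 without citrate buffer replicate 1 (edgeR). *Rab26*, of secretory granules, read 12.74, 8.17, 4.71 and 2.78 CPM after buffer and 3.42, 3.22, 1.99 and 3.67 CPM after iron. Its 2 highest values were in the 2 libraries with the most counts on the silent families, and the iron libraries lay between the values of citrate buffer replicates 3 and 4, except for the lowest. The log2 fold change of -1.21 ± 0.48 (adjusted p 0.333) became -0.41 with the silent families as a covariate and -0.30 without citrate buffer replicates 1 and 2 (edgeR). Whether that signal sets the values of *Rab26* was not tested.

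**Figure D4:**
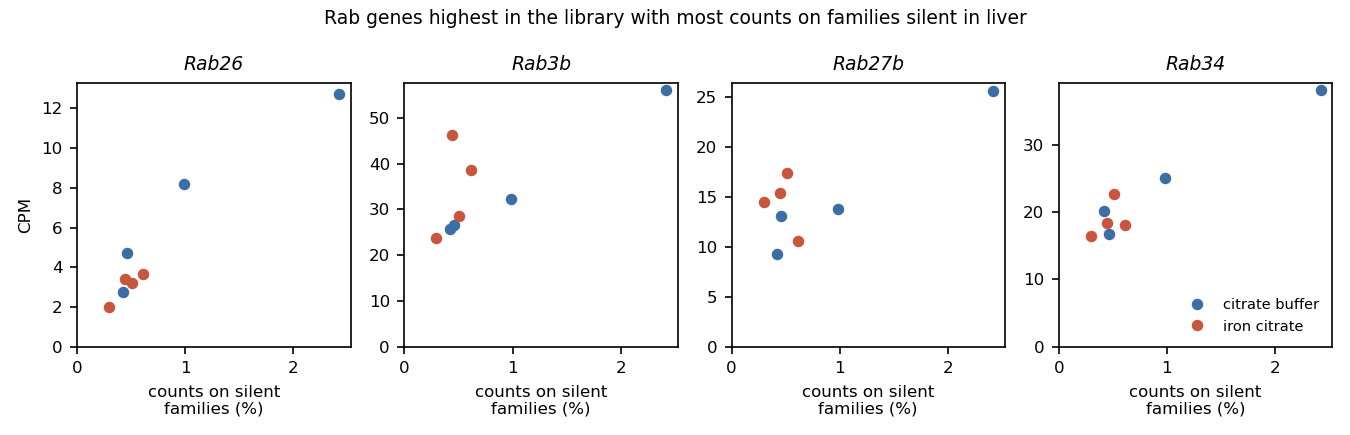
CPM of *Rab26*, *Rab3b*, *Rab27b* and *Rab34* against the share of each library's counts on families silent in liver, 1 point per library. Citrate buffer replicate 1, at 2.42%, is the highest library for all 4 genes, which were chosen for that.

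Citrate buffer replicate 1 was the lowest of the 8 libraries for 21 of the 40 tested Rab genes (52.5%, against 36.6% of all tested targets) and the highest for 10 (25.0%, against 37.4%). The 10 were *Rab27b*, *Rab34*, *Rab3d*, *Rab24*, *Rab19*, *Rab9*, *Rab3b*, *Rab29*, *Rab2b* and *Rab26*. *Rab3b*, outside the naming rule like *Rab27b* and *Rab34*, read 56.0 CPM there and 23.7 to 46.4 CPM in the other 7 libraries. *Rab27b* read 25.6 CPM there and 9.26 to 17.4 CPM elsewhere, and *Rab34* 38.1 CPM and 16.5 to 25.0 CPM. Of the 10 highest Rab genes, *Rab1a*, *Rab14*, *Rab2a*, *Rab11a*, *Rab5c*, *Rab12* and *Rab18* were lowest in that library, and *Rab10*, *Rab27a* and *Rab8b* were not. *Rab14* read 232 CPM there against 331 to 410 CPM elsewhere, and *Rab1a* 309 CPM against 321 to 401 CPM.

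Read as shares of all Rab counts, early endosome genes took 14.97 ± 1.45% after buffer and 16.6 ± 0.66% after iron, recycling genes 20.2 ± 2.39% and 21.4 ± 0.97%, and late endosome genes 7.41 ± 1.67% and 6.21 ± 0.52%. Secretory genes took 55.3 ± 2.59% and 53.6 ± 0.88%. In buffer replicate 1 lay the lowest share of early (13.05%) and recycling genes (16.7%) and the highest of late endosome (9.76%) and secretory genes (59.0%). Late endosome genes took 6.15% to 7.42% in the other buffer libraries and 5.78% to 6.95% after iron.

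Within 8 Rab subfamilies with more than 1 tested gene, the share of a paralogue in the counts of its subfamily was compared, a ratio within a library that needs no scaling. *Rab1a* made up 84.7 ± 4.62% of the Rab1 counts after buffer and 86.9 ± 1.81% after iron, and *Rab2a* 87.9 ± 2.76% and 89.6 ± 1.38% of Rab2. *Rab5c* took the largest share of the Rab5 counts, with 52.9 ± 1.04% and 50.3 ± 3.59%. It was followed by *Rab5b* with 28.6 ± 3.82% and 27.9 ± 2.07% and *Rab5a* with 18.5 ± 3.10% and 21.8 ± 1.92%. The efficiency of each amplicon is not known, so these are shares of counts and not of transcripts. *Rab27a* made up 93.46 ± 5.07% of Rab27 after buffer and 93.52 ± 0.56% after iron. None of the 8 shares passed an exact two-sided permutation test of 4 against 4 libraries, where the smallest p that can be reached is 0.0286. The lowest were 0.114 for Rab8 and 0.143 for Rab5 and for *Rab22a* against *Rab31* (each 0.381 adjusted over the 8).

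**Figure D5:**
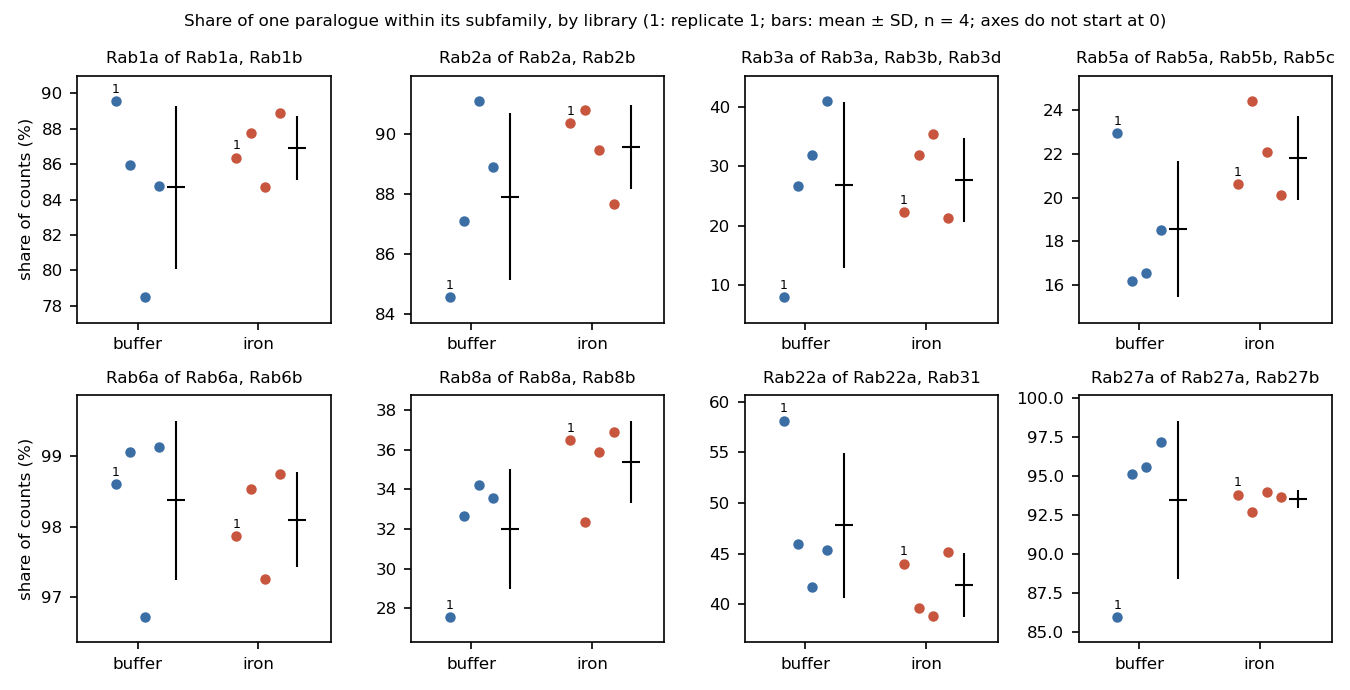
Share of a paralogue in the counts of its subfamily in each library, with citrate buffer and iron citrate replicate 1 marked and bars for mean ± SD (n = 4). The axes do not start at 0. Citrate buffer replicate 1 lies apart from the other buffer libraries for *Rab3a*, *Rab5a*, *Rab8a*, *Rab22a* and *Rab27a*.

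Without citrate buffer replicate 1, *Rab5a* made up 17.1 ± 1.24% (n = 3) of the Rab5 counts after buffer and 21.8 ± 1.92% after iron, and *Rab27a* 96.0 ± 1.09% (n = 3) and 93.5 ± 0.56% of Rab27. In both the libraries of the groups did not overlap. The exact permutation p was 0.0571 in each, the smallest that 3 against 4 libraries allow, and 0.229 adjusted over the 8 subfamilies. These values are therefore reported without a call.

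The proteins that act on Rabs were followed through 8 lists of exchange factors, effectors, tethers, GTPase-activating proteins and prenylation factors, with 101 of 106 genes tested. None passed the test, against 0.555% of all targets. The log2 fold change was above 0 for 78 of the 101 (77.2%, against 49.0% of all targets), with a median of 0.19. An unadjusted p under 0.05 was reached by 12 with higher values (11.9%, against 6.57% of all targets) and by 3 with lower values (2.97%, against 8.0%). The median was 0.07 without citrate buffer replicate 1, with 63.4% above 0 against 45.6% of all targets, and 0.00 with the silent families as a covariate, with 50.5% above 0. The counts for single lists given next are from all 8 libraries, to be read against the 49.0% of all targets above 0.

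Of the 7 Rab5 exchange factors, 5 lay above 0, also 5 without citrate buffer replicate 1, and 1 with higher and 1 with lower values had an unadjusted p under 0.05. *Rin1*, which encodes such a factor, stood at 16.6 ± 11.8 and 7.43 ± 1.51 CPM, with 33.7 CPM in that library, and its log2 fold change of -1.17 became -0.58 without it.

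Of the 12 Rab5 effectors and tethers, 11 had log2 fold changes above 0, with 10 without citrate buffer replicate 1 and 7 with the covariate. *Eea1*, the tether of early endosomes, had a mean of 172 ± 49.2 CPM in buffer and of 218 ± 19.4 CPM after iron, with a log2 fold change of 0.34 (adjusted p 0.350). The same buffer replicate 1 was its highest buffer library with 242 CPM, and without it the log2 fold change was 0.55 with an adjusted p of 0.0418, where 1.75% of all targets passed, and with the covariate the adjusted p was 0.0713 (edgeR). *Rabep1*, an effector of Rab5 and Rab4, had a log2 fold change of 0.39 (adjusted p 0.333). Of the 15 tested partners of Rab4, Rab11 and Rab35, 12 lay above 0, with 11 without citrate buffer replicate 1 and 7 with the covariate. *Evi5*, a partner of Rab11, had 27.3 ± 2.31 and 33.7 ± 2.55 CPM (0.30 on the log2 scale). *Rab11fip5*, an effector of Rab11, went the other way, with 13.2 ± 3.96 and 8.56 ± 0.83 CPM (-0.63, adjusted p 0.333).

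Of the 12 exchange factors and effectors of Rab7, 11 lay above 0, with 8 without citrate buffer replicate 1 and 7 with the covariate. An unadjusted p under 0.05 with higher values was reached by 4 (33.3%, against 6.57% of all targets). *Vps26a*, which encodes a subunit of the retromer complex that Rab7 recruits, had a mean of 112 ± 15.4 CPM in buffer and of 157 ± 19.6 CPM after iron. The libraries did not overlap, and the log2 fold change was 0.48 (adjusted p 0.296, edgeR). *Osbpl1a*, a sterol sensor on late endosomes, was low, with 1.79 ± 0.47 and 3.97 ± 1.08 CPM (log2 fold change 1.15, adjusted p 0.303). In the HOPS complex, which tethers late endosomes to lysosomes, 4 of 6 genes lay above 0, with 3 without citrate buffer replicate 1 and 1 with the covariate. *Vps41* had 25.3 ± 4.79 and 37.3 ± 5.28 CPM (0.56, adjusted p 0.324). *Vps18* had 12.3 ± 6.68 and 16.1 ± 3.96 CPM, and its log2 fold change of 0.39 became 0.10 without citrate buffer replicate 1.

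Of the 12 tested partners of Rab3 and Rab27, 8 lay above 0, also 8 without citrate buffer replicate 1 and 7 with the covariate. *Myrip*, which links Rab27a to myosin, was low, with 0.74 ± 0.31 and 1.68 ± 1.09 CPM. *Rab3il1*, an exchange factor of Rab8, had 110.3 ± 24.6 CPM in buffer and 76.2 ± 15.3 CPM with iron, with a log2 fold change of -0.53 (adjusted p 0.333), and it passed with limma-voom (-0.69, adjusted p 0.0330), where 1.98% of all targets passed. Of the 29 tested TBC proteins, 21 lay above 0 (72.4%), but 15 without citrate buffer replicate 1 (51.7%, against 45.6% of all targets) and 13 with the covariate, and the median of 0.17 was 0.0042 without that library. *Rabgap1* stood at 50.7 ± 6.26 and 71.9 ± 5.94 CPM with no overlap (log2 fold change 0.50, adjusted p 0.210) and passed with DESeq2 (adjusted p 0.0168), where 2.92% of the targets tested passed. *Tbc1d15*, which acts on Rab7, stood at 194 ± 24.9 and 257 ± 14.2 CPM (0.40, adjusted p 0.333). Of the 8 genes of prenylation and of the cycle on and off the membrane, 6 lay above 0, with 4 without citrate buffer replicate 1. None had an unadjusted p under 0.05 with all 8 libraries, and 1 had without that library. *Chm*, the escort protein that presents Rabs for prenylation, stood at 72.1 ± 11.9 and 87.1 ± 6.32 CPM. Its log2 fold change was 0.27 (adjusted p 0.336), and 0.39 without citrate buffer replicate 1 (adjusted p 0.152, both edgeR). The 6 dendritic cell markers summed to 278 to 335 CPM after buffer and 427 to 450 CPM after iron. Of these, *Clec9a* had 171 to 220 and 327 to 337 CPM, and *Siglech* 18.8 to 25.7 and 25.0 to 48.4 CPM. *Xcr1* had 22.8 to 71.7 and 26.5 to 33.5 CPM and *Flt3* 12.3 to 25.5 and 9.89 to 12.6 CPM. *Itgax* had 16.4 to 30.9 and 17.9 to 24.2 CPM, and *H2-Ab1* 1.43 to 4.45 and 1.74 to 2.94 CPM. The list did not move as 1, and its part in the values of the partner lists was not tested.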

How the data were processed

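The authors deposited whole-number read counts per RefSeq target, for which the submitters' processing notes list HTSeq 0.6.0 and DESeq2 1.18.1. Aligner, build and read filters: not given in the sources used here. RNA was extracted with TRIzol LS and glycogen and amplified with the Ion AmpliSeq mouse kit, per the labels' protocols. HTSeq's summary lines (2.15% to 4.60% of a file) were left out. Of the Rab targets, 45 were named from the full accession and 7 from the accession less its version. The other 2 were named from a GENCODE table that links transcripts to RefSeq accessions.

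Groups were compared with edgeR 4.0.16 in R 4.3.3 over the 14601 targets that filterByExpr kept, with TMM factors. Log2 fold changes, their SE and CPM were computed here. Alternatives used DESeq2 1.42.0, limma-voom (limma 3.58.1), other scaling and filters, a replicate block, the silent families as a covariate, and libraries left out. Pairs of libraries within a group differed by a chi-square per degree of freedom of at least 8.79, so none was a duplicate. Beyond 1 mouse per library the labels give no origin of the replicates, and p-values therefore reflect only the spread among these libraries, which may be technical. Amplicon reads carry no molecular identifiers, so floors cover counting error only. Reads of close paralogues could be split between their targets, which makes those values uncertain.

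The members and lists were chosen with earlier results of these data known. Named were the measured Rab4, Rab5, Rab7 and Rab11 genes, the 3 highest genes of each group after buffer, genes with p under 0.05, the 5 largest log2 fold changes, genes below the filter, and 2 genes per partner list, some of which are not reported here. The fit was tested on simulated data over 14470 genes, and calls were made for 38 of 100 genes with a 2-fold change, 74 of 99 with a 4-fold change and 5 of 14271 with none. Changes were put only in genes above a minimum expected count. Counts were drawn independently for each gene, without a library that stands apart as citrate buffer replicate 1 does. These shares therefore need not hold for the 8 libraries or for genes with few counts.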

Additional observations from a re-analysis of the deposited data

Results flagged for a closer look

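In 4 of 50 groups of 4 libraries examined, counting the named Rab genes in each treatment, 1 library lay far from the other 3 by Dixon's criterion, and chance gives about 1 in 20. *Rab27a* read 156.2 CPM in iron citrate replicate 4 against 220.4 to 232.8 CPM in the other iron libraries. *Rab18* read 152.9 CPM in iron citrate replicate 2 against 142.4 to 143.9 CPM. *Rab24* read 78.2 CPM in citrate buffer replicate 1 against 52.0 to 55.0 CPM. *Rab32* read 77.6 CPM in iron citrate replicate 2 against 50.4 to 52.3 CPM.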

How the results depend on the processing

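The count of 0 called Rab genes held in 17 of 18 alternatives, with the covariate of silent families giving 1, *Rab27a*, and leaving out single libraries giving 0 to 0. The median log2 fold change of Rab genes ran from 0.068 to 0.179 with a library left out and from 0.025 to 0.169 otherwise. The partner lists, whose counts were chosen after seeing the data, gave 2 calls with DESeq2, 3 with limma-voom, 1 with the covariate and 0 to 2 with a library left out. With the replicate block, 0 Rab genes were called, the Rab median was 0.169, and 43 targets were called in place of 81. Same-numbered libraries correlated at -0.000298, 0.176, 0.609 and -0.315, and only replicate 3 correlated best with its own number, so the numbers were not taken as pairs. Over all targets 352 were called with DESeq2, 289 with limma-voom, 329 with the covariate and 258 without citrate buffer replicate 1. Upper-quartile factors and library totals moved the median of all genes to -0.119 and -0.106.

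Of 25 named Rab genes, 14 kept their direction in the alternatives run for them and 11 did not, and the cause was not tested. *Rab42*, *Rab6b* and *Rab7b* could not be tested at a mean CPM of at least 5. Log2 fold changes that turned were, with upper-quartile factors, -0.024 for *Rab10*, -0.077 for *Rab11a*, -0.066 for *Rab5c* and -0.049 for *Rab5b*, and with library totals -0.015, -0.060, -0.051 and -0.033. With limma-voom they were -0.103 for *Rab11a*, 0.0039 for *Rab8b*, -0.085 for *Rab5c*, -0.117 for *Rab5b*, 0.011 for *Rab9*, 0.080 for *Rab24*, -0.124 for *Rab40c* and -0.022 for *Rab7b*. With the covariate they were -0.151 for *Rab11a*, -0.129 for *Rab5c*, -0.249 for *Rab5b*, 0.013 for *Rab9*, 0.159 for *Rab24*, -0.204 for *Rab40c*, -0.029 for *Rab28* and -0.176 for *Rab7b*. Without citrate buffer replicates 1 and 2 they were -0.092 for *Rab11a*, -0.182 for *Rab5c*, -0.0094 for *Rab12*, -0.232 for *Rab5b*, 0.060 for *Rab9*, 0.120 for *Rab24*, -0.166 for *Rab40c*, -0.059 for *Rab28* and -0.035 for *Rab7b*, and the share differences were -0.426 points for Rab2, -8.72 for Rab3, 0.173 for Rab6 and -2.86 for Rab27. With 1 library left out the range was -0.081 to 0.127 for *Rab11a*, -0.084 to 0.030 for *Rab8b*, -0.083 to 0.121 for *Rab5c*, -0.146 to 0.163 for *Rab5b*, -0.124 to 0.097 for *Rab24*, -0.063 to 0.417 for *Rab40c*, -0.050 to 0.415 for *Rab7b*, and in points -5.49 to 5.54 for the Rab3 share, -0.831 to 0.0012 for Rab6 and -2.44 to 1.30 for Rab27. Genes at a few CPM rest on few counts per library, which limits what could be detected.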
